A study of Mus musculus with 4 samples.

Results

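Serum response factor (SRF), the transcription factor encoded by Srf, and the 6 genes of the cofactors it works with were followed in mature mouse bone marrow neutrophils with and without Srf. The genes were taken by symbol from the authors' gene table: Srf, the myocardin family genes Mkl1, Mkl2 and Myocd, and the ternary complex factor genes Elk1, Elk3 and Elk4. These are 7 of 23284 genes, with 11 isoform rows, 10 transcription start site (TSS) group rows and 11 coding sequence rows of their own, and 6 of the 7 were tested by the authors. The groups are 2 WT samples and 2 Srf KO samples, and all 4 are bone marrow cells sorted for mature neutrophils by Gr1, the 7/4 antigen and side scatter, each high. How Srf was removed, which exons were lost, and the strain, age and sex of the mice are not given in the sources used here. Levels are FPKM, fragments scaled to transcript length and library size, with 1 pooled value per genotype, so the spread between samples and the depth of each library are unknown. Each difference is a log2 fold of Srf KO over WT, followed after ± by a standard error worked out from the deposited fold and its statistic. A gene is called when its adjusted p, taken over all tested genes by the authors, is at most 0.05.

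SRF is a MADS box protein that binds the CArG box, an A/T-rich element flanked by cytosines and guanines, and on its own it is a weak activator. Its partners decide when it acts. The myocardin-related factors MRTF-A (gene Mkl1) and MRTF-B (gene Mkl2) are held in the cytoplasm by monomeric actin and enter the nucleus when that actin is drawn into filaments, which turns on genes of the actin cytoskeleton. Myocardin itself, from Myocd, is a nuclear activator of heart and smooth muscle. The ternary complex factors ELK1, ELK3 (also called NET) and ELK4 (also called SAP1) are ETS proteins that sit beside SRF on DNA, are phosphorylated by the RAS to ERK cascade and serve immediate-early genes such as Fos and Egr1. Both partner families bind the same face of SRF and compete for it. Srf is itself a classic SRF target.

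Of 12634 tested genes, 35.5% were called in either direction, 17.8% lower and 17.7% higher in Srf KO. Neutrophil genes were abundant in both genotypes: the 9 tested of 15 listed markers summed to 17712 FPKM in WT and 13926 in Srf KO, with 5 called lower and 1 higher. Most of that sum was Lcn2 (11068 and 10418). Ltf, Ngp, S100a8 and S100a9, listed at 0 in both genotypes, and Camp, listed at 16292 and 0, were not tested. Their status is HIDATA, so their levels are not known here and the sum is not a measure of neutrophil content. Many markers of other marrow cells were called higher in Srf KO. Calls of higher level covered 11 of 12 T and NK cell markers (summed level 53.0 FPKM in WT, 124 in Srf KO), 6 of 10 B cell markers (136 and 212), 7 of 9 erythroid markers (140 and 199) and 8 of 11 megakaryocyte and platelet markers (7.51 and 51.9), with 0 of these lists' genes called lower. Among 11 macrophage and monocyte markers 7 had a higher call and 3 a lower one (1356 and 1764), and of 8 tested endothelial and stromal markers 3 had a higher call (11.4 and 19.4). Most of the macrophage and monocyte sum was Ly6c2 (1144 FPKM in WT, 1544 in Srf KO), which was not called. Hbb-b2 (128 and 158), also not called, made up most of the erythroid sum. Only 1 tested marker, the platelet gene Gp6, was listed at 0 in WT and 0 were listed at 0 in Srf KO. The part of these other cells in the levels below was not tested, and in such bulk samples a different share of a cell type cannot be told apart from a different RNA content per cell. Sex-linked genes differed too. Xist, made from the inactive X chromosome, stood at 0.0154 FPKM in WT and 4.92 in Srf KO, and the Y-linked gene Ddx3y at 13.5 and 4.23, by the authors' pooled values.

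The promoter of Srf is shown first because it holds the motifs of SRF and of its ETS partners side by side. The 250 bases before its start (RefSeq, build GRCm38.p6, chr17:46556163-46556412, minus strand) read as follows, with capitals marking, from left to right, 1 ETS core CCGGAA and 2 CArG boxes.
Srf promoter: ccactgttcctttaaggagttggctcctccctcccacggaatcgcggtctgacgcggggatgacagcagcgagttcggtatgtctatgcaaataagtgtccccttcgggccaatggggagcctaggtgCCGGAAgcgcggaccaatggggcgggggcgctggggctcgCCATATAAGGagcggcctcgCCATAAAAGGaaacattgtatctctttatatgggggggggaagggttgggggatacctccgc
The CArG boxes begin 82 and 62 bases before the start and the ETS core begins 122 bases before it. Both motifs were searched on both strands in windows of 300 bases, 250 before and 50 after each start. Of 32851 such windows 1.63% held a CArG box and 6 held 2 or more, while CCGGAA occurred in 14.9%. Among the 6 members matched to this set, all but Myocd, Srf was the only one with a CArG box, and Mkl2 and Elk4 each had CCGGAA, in Mkl2 on the reverse strand 136 bases and in Elk4 68 bases before a start. A match is a description of the letters and not evidence of binding.

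Srf transcript was nearly lost from the cells labelled Srf KO. Srf (mm10 chromosome 17, 46546839 to 46556162, minus strand, 7 exons) stood at 13.7 FPKM in WT and at 0.439 in Srf KO, as the authors' pooled values. In WT this level lay above 65.9% of tested genes, and in Srf KO above 9.18%. The fold in the authors' deposited table was -4.97 ± 0.27, with an adjusted p listed as 0, and only 0.00797% of the 12552 tested genes with a finite fold fell further. Its isoform, TSS group and coding sequence rows repeat the gene's values, since 1 annotated transcript (7 exons, 504 codons) carries them all. The source of the remaining signal was not tested. The nearest by distance on the log2 scale over both genotypes, among 12552 genes, was Lima1, the gene of the filament cross-linker EPLIN, at a distance of 1.05 (8.92 FPKM in WT, 0.788 in Srf KO). Rab11fip4, for a partner of RAB11 in vesicle traffic, followed at 1.41 (12.6 and 1.16 FPKM), then Clip2, for a microtubule linker protein (5.98 and 0.915 FPKM). With 1 pooled value a genotype, this likeness rests on 2 numbers a gene.

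**Figure D1:**
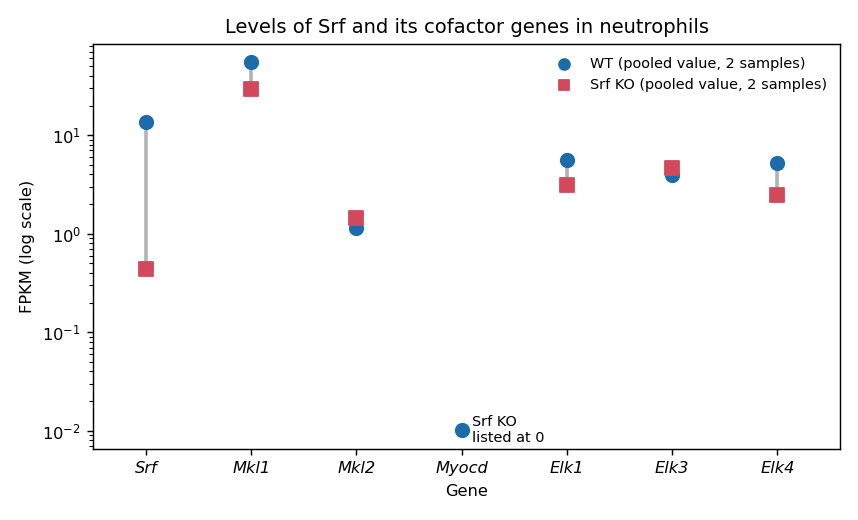
Pooled FPKM of the 7 genes in WT (circles) and Srf KO (squares) on a log axis. Srf drops from 13.7 to 0.439, Mkl1 is the most abundant in both genotypes, and Myocd is near the floor at 0.0101 in WT and listed at 0 in Srf KO.

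Among the myocardin family, Mkl1 was by far the most abundant gene and fell, whereas Mkl2 was scarce and was not called. Mkl1 (chromosome 15, minus strand, annotated transcripts within 81012281 to 81190757) stood at 54.8 FPKM in WT and 29.5 in Srf KO, above 89.0% and 82.5% of tested genes. The Srf KO level was 53.9% of WT, and the authors' deposited table puts the log2 fold at -0.89 ± 0.19 (adjusted p = 2.26e-05). The 3 genes nearest to Mkl1 in both levels, Prr14 (53.9 and 29.5 FPKM), Kif21b (55.4 and 29.9) and Ppp6r1 (53.7 and 29.5), lay within a distance of 0.0300 on the log2 scale. The table gives Mkl1 and Sgsm3, which is on the plus strand, a shared locus of 80977765 to 81190757. Sgsm3 stood at 1.30 FPKM in WT and 1.01 in Srf KO, and the annotated exons of the pair share 10 bases.

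Mkl2 (chromosome 16, 13256481 to 13417529, plus strand) was at 1.15 FPKM in WT and 1.44 in Srf KO. Its log2 fold was 0.32 ± 0.31 in the authors' deposited table (adjusted p = 0.431), with a 95% interval of -0.28 to 0.93. Myocd (chromosome 11, 65176571 to 65269989, minus strand) was listed at 0.0101 FPKM in WT and at 0 in Srf KO and carries the authors' status of not tested, so no fold is given. Mkl1 thus made up 97.9% of the summed FPKM of the family in WT and 95.4% in Srf KO. The ratio of Mkl1 to Mkl2 was 47.7 in WT and 20.6 in Srf KO. The log2 fold of Mkl1 minus that of Mkl2 was -1.22 (95% interval -1.92 to -0.51), an interval that leaves out 0.

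The Mkl1 signal was assigned almost wholly to the annotated transcript that starts inside the gene, and start sites themselves were not measured. The internal-start transcript, whose annotated start lies 85.7 kb downstream of the other, was at 53.6 FPKM in WT and 28.8 in Srf KO, which is 97.8% and 97.5% of the summed FPKM of the gene. It fell in the authors' deposited isoform table (log2 fold -0.90 ± 0.19, adjusted p = 3.32e-05). The transcript from the upstream start was at 1.21 and 0.738 FPKM, with a log2 fold of -0.71 ± 1.36 and an adjusted p of 0.776 in the authors' deposited isoform table. With that error a change like that of the abundant transcript was not detectable. The pair share 12 exons and 3843 bases, and only 1 exon of the internal-start form and 2 of the upstream form, 311 and 523 bases counting differing ends, tell them apart. The annotation gives 964 codons to the internal-start form and 929 to the upstream form. Whether the folds of the 2 transcripts differ was not tested, since their estimates share reads.

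**Figure D2:**
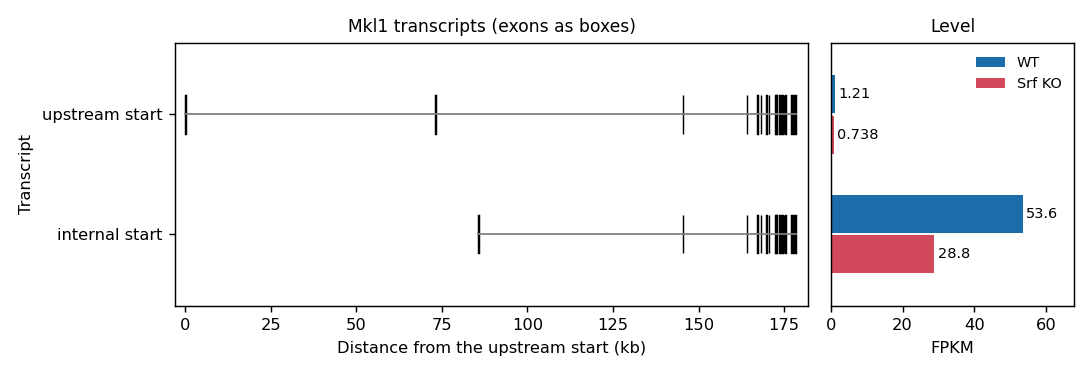
The 2 annotated Mkl1 transcripts of the table, drawn by distance in kb from the upstream start with exons as boxes (left), and their pooled FPKM in WT and Srf KO (right). The internal-start transcript is at 53.6 and 28.8 FPKM, against 1.21 and 0.738 for the upstream one.

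The 250 bases before each Mkl1 start are printed because nearly all of the Mkl1 signal was assigned to 1 of them (RefSeq, GRCm38.p6, minus strand, chr15:81105048-81105297 for the internal start and chr15:81190737-81190986 for the upstream start). Neither window holds a CArG box or CCGGAA, so no letters are capitalised.
Mkl1 internal start: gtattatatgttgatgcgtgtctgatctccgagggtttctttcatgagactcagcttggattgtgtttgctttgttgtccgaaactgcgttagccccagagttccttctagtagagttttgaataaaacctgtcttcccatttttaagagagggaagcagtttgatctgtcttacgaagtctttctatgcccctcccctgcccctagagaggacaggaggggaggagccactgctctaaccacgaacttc
Mkl1 upstream start: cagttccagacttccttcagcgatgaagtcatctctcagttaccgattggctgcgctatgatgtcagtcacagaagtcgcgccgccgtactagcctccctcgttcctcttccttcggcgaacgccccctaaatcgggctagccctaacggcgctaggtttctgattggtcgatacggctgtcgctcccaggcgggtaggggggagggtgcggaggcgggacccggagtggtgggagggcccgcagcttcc
The internal window is 46.8% G and C and the upstream window 62%. The RefSeq starts used for these windows lie 36 and 21 bases from the annotated starts of the internal-start and upstream-start transcripts. Mkl2 likewise had 1 dominant transcript (17 exons, 1091 codons), with 96.4% of the gene's summed FPKM in WT and 96.2% in Srf KO. A short Mkl2 form of 102 codons was at 0.0413 and 0.0551 FPKM, and a form that starts 102 kb downstream was listed at 0 in both genotypes. The signal of Myocd in WT lay on the transcript of 935 codons, at 0.0101 FPKM.

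The ternary complex factor genes split: Elk1 and Elk4 fell and Elk3 was not called. Elk1 (X chromosome, 20933395 to 20950608, minus strand) was at 5.59 FPKM in WT and 3.14 in Srf KO. Its log2 fold was -0.83 ± 0.23 in the authors' deposited table (adjusted p = 0.00142). Elk4 (chromosome 1, 132007605 to 132025684, plus strand) was at 5.26 FPKM in WT and 2.50 in Srf KO, 2.11-fold lower. Its log2 fold was -1.08 ± 0.23 in the authors' deposited table (adjusted p = 4.71e-05).

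Elk3 (chromosome 10, 93247416 to 93311159, minus strand), for a factor first known as a repressor that ERK signalling can turn into an activator, was at 3.91 FPKM in WT and 4.61 in Srf KO. The log2 fold was 0.24 ± 0.22 in the authors' deposited table (adjusted p = 0.412), with a 95% interval of -0.19 to 0.66. The log2 fold of Elk1 minus that of Elk3 was -1.07 (95% interval -1.69 to -0.46). The log2 fold of Elk3 exceeded that of Elk4 by 1.31 (95% interval 0.69 to 1.94). The fold of Elk1 minus that of Elk4 was 0.24, with a 95% interval of -0.40 to 0.88 that holds 0. With Mkl1 and Mkl2, these make 4 pairs compared; each interval treats the implied errors of its 2 genes as independent, and none is adjusted for the number of pairs.

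**Figure D3:**
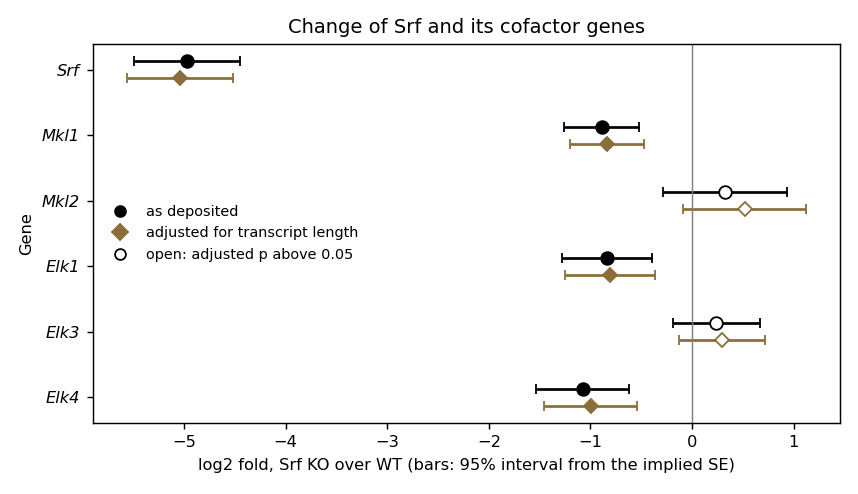
Log2 fold of Srf KO over WT for the 6 tested genes, as deposited (circles) and after adjustment for transcript length (diamonds), with 95% intervals from the implied standard errors. Srf, Mkl1, Elk1 and Elk4 lie below 0 with filled symbols on both scales, and the intervals of Mkl2 and Elk3 span 0.

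The summed FPKM of Elk1, Elk3 and Elk4 was 14.8 in WT and 10.2 in Srf KO. In WT Elk1 held 37.9% of that sum, Elk4 35.6% and Elk3 26.5%. In Srf KO Elk3 held the most, 45.0%, against 30.6% for Elk1 and 24.4% for Elk4. Each of the 3 genes has 1 transcript in the tables, so their isoform, TSS group and coding sequence values equal the gene values. For Elk4 the gene was tested, whereas its isoform, TSS group and coding sequence rows, with the same levels and the same unadjusted p of 4.2e-06, carry the authors' status of not tested and no call. This is not peculiar to Elk4, since 447 of 9756 tested genes with 1 isoform row have an isoform row left untested with an identical p. In each of those other tables the members had 6 tested rows, of which 3 were called, all lower and belonging to Srf, Mkl1 and Elk1. Over all tested rows 27.2% of isoforms were called (14% lower, 13.1% higher), 31.2% of TSS groups (16.1% lower, 15.1% higher) and 30.2% of coding sequences (15.8% lower, 14.4% higher).

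In total 4 of 6 tested members, Srf included, were called lower and 0 higher, against 17.8% of all tested genes called lower and 17.7% called higher. Without Srf, whose loss is the genotype itself, that is 3 of 5 tested cofactor genes. The median log2 fold of the 6 was -0.86 and that of all tested genes 0.08. Across the 7 genes the order of level in WT was Mkl1, Srf, Elk1, Elk4, Elk3, Mkl2 and Myocd, and in Srf KO it was Mkl1, Elk3, Elk1, Elk4, Mkl2, Srf and Myocd. Which neighbours in this order differ beyond their spread cannot be told from pooled values, and Elk1 and Elk4, 5.59 and 5.26 FPKM in WT, are the closest. The ratio of Mkl1 to Srf was 3.99 in WT and 67.3 in Srf KO.

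Some measured facts stand beside these folds. Longer transcripts had lower folds in this series, with a median log2 fold of 0.35 in the shortest of 5 equal classes of genes by transcript length and -0.21 in the longest. After that trend was removed, the log2 folds were -5.04 for Srf, -0.84 for Mkl1, -0.81 for Elk1, 0.52 for Mkl2 and 0.29 for Elk3. Srf, Mkl1, Elk1 and Elk4 were still called lower, and Mkl2 and Elk3 were still not called. Higher calls among the cell markers were then 11 for T and NK cells, 5 for B cells and 7 for erythroid cells. They were 6 for megakaryocytes and platelets, 7 for macrophages and monocytes (3 lower) and 6 for endothelium and stroma. Gp6, with no finite fold, could not be adjusted. Over all genes 2297 were called lower and 1806 higher after this adjustment. Elk1 is on the X chromosome, and Xist and Ddx3y differed between the genotypes as given above. The 400 tested X-linked genes had a median log2 fold of 0.19, with 15.25% called lower and 17.75% higher, and the autosomal genes a median of 0.07, with 17.9% called lower and 17.7% higher. The part of sex in the Elk1 fold was not tested. In the annotation, exons of Elk1 share 76 bases with Uxt on the same strand, and Uxt was at 11.3 FPKM in WT and 15.9 in Srf KO. Exons of Elk4 share 104 bases with Gm29103 on the same strand and 84 with Mfsd4a on the opposite one. Exons of Elk3 share 316 bases with Cdk17 on the opposite strand, and the libraries do not keep the strand. The loci the table gives to Elk3 and Cdk17 do not touch, and Cdk17 was at 25.1 FPKM in WT and 16.7 in Srf KO. Exons of Mkl2 share 162 bases with Gm15738 on the opposite strand. The part of shared bases in the levels of Mkl2, Elk1, Elk3 and Elk4 was not tested.

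Relatives of SRF and of its partners were listed for comparison. Their counts stand beside 17.8% of all tested genes called lower and 17.7% called higher. Of the 4 MEF2 genes, which encode the other MADS box factors of vertebrates, 3 were tested and 2 were called lower. Mef2d went from 11.3 to 6.23 FPKM (log2 fold -0.86 ± 0.22, adjusted p = 0.000543) and Mef2a from 15.6 to 8.68 FPKM (-0.84 ± 0.20, adjusted p = 0.000265), all as the authors' deposited table gives them. Mef2c, at 2.63 and 3.97 FPKM, was not called. Among 13 tested ETS genes outside the ternary complex factors, 3 were called lower and 2 higher, with a median of -0.22. These counts are near the shares over all tested genes. Spic, a factor of red pulp and marrow macrophages, rose from 1.65 to 8.08 FPKM (2.29 ± 0.29) and Spib, a factor of B cells and plasmacytoid dendritic cells, from 10.7 to 17.2 FPKM (0.69 ± 0.21), all as the authors' deposited table gives them. Of the markers given above, 6 of 10 B cell and 7 of 11 macrophage and monocyte markers were called higher in Srf KO. Another 3 macrophage and monocyte markers were called lower. The part of these cells in the rises of Spic and Spib was not tested. Ets2, itself a RAS-responsive factor, fell by 0.90 on the log2 scale (± 0.19; 19.7 FPKM in WT against 10.6 in Srf KO), again by the authors' deposited table.

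The list of kinase signalling upstream of the ternary complex factors holds RAS to ERK genes together with the p38 kinase gene Mapk14, the JNK genes Mapk8 and Mapk9 and the calcineurin gene Ppp3ca, so its counts are not those of the ERK cascade alone. Of its 19 tested genes 9, Mapk14 among them, were called lower and 0 higher (median -0.30). Of all tested genes 17.8% were called lower and 17.7% higher. Sos2, an exchange factor for RAS, dropped from 35.6 to 14.9 FPKM (-1.26 ± 0.18) and Rps6ka3, which encodes the ERK-activated kinase RSK2, from 22.3 to 9.84 FPKM (-1.18 ± 0.21), all as the authors' deposited table gives them. After length adjustment 9 genes of this list, Mapk14 again included, were called lower and 2 higher, which were Mapk8 and Spred1, for an inhibitor of RAS to ERK signalling.

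Known targets were listed for each branch, and their counts stand beside the 17.8% of all tested genes called lower and 17.7% called higher. Of 17 tested actin type targets, those usually assigned to the myocardin-related factors, 12 were called lower and 1 higher, with a median of -1.32. The actin genes Acta1 (47.5 to 3.48 FPKM) and Actg1 (2246 to 262 FPKM) and the tropomyosin gene Tpm4 (223 to 42.5 FPKM) had the largest folds of that list. Of 15 tested immediate-early targets, usually assigned to the ternary complex factors, 9 were called lower and 2 higher, with a median of -0.70. Dusp1, a phosphatase gene that damps MAP kinases, had 122 FPKM in WT and 38.7 in Srf KO, Egr1, for a zinc finger factor, 11.8 and 3.78, and Junb, for a member of AP-1, 34.5 and 12.2, and the authors' deposited table calls each lower. After length adjustment 11 actin type targets were called lower and 0 higher, and 9 immediate-early targets lower and 1 higher. Whether the branches differ was not tested.

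**Figure D4:**
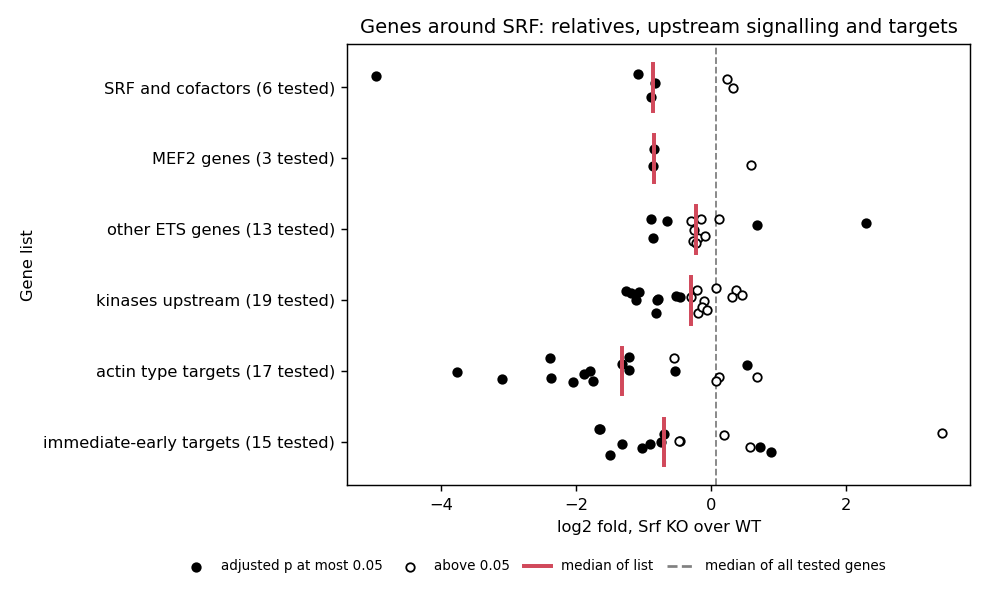
Log2 folds of the tested genes in 6 lists, 1 point per gene, filled where the adjusted p is at most 0.05, with the list's median as a red bar and the median of all tested genes, 0.08, as a dashed line; kinases upstream are the kinase signalling list. Actin type targets have the lowest median, -1.32, and the Srf point at -4.97 stands alone in the top row.

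The promoters of tested genes were read for the CArG box in the same windows. Of 149 tested genes with a CArG box, 39 (26.2%) were called lower and 20 (13.4%) higher, while of 8741 genes whose windows hold none 18.3% were called lower and 17.7% higher. The medians were 0.00 and 0.06. Without Srf, 38 of 148 tested genes with a CArG box (25.7%) were called lower and 20 (13.5%) higher. Only Srf and Dusp5, a phosphatase gene for ERK, had 2 CArG boxes among tested genes, and Dusp5, at 2.49 FPKM in WT and 2.03 in Srf KO, was not called (adjusted p = 0.492 in the authors' deposited table). Boxes farther from the start, in introns or in windows absent from this set are not counted.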

How the data were processed

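Libraries of the sorted neutrophils were made, per the labels' protocols, by TruSeq RNA v2, which keeps no strand. The submitters' processing notes name CASAVA 1.8.1, TopHat2 2.0.0, Cufflinks 2.0.0 and build mm10, with no settings. The deposited FPKM values are 1 pooled value per genotype, per the file headers. The authors' log2 fold runs from KO to WT, per the file headers; here it is given the other way round. Beside each fold the authors deposited a test score, a p-value and a q-value. In all 4 tables the p-value was checked to be the normal tail of the statistic, the q-value its Benjamini-Hochberg adjustment over tested rows, and the call a q-value of at most 0.05. A test on samples had been planned; as the values are pooled, results rest on the test the authors ran, and depth and replicate spread are unknown. The labels do not say that samples came from separate animals.

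The implied standard error is the absolute fold over the absolute statistic (median 0.24). Intervals are 1.96 such errors. Length adjustment subtracted the median fold in 50 bins of GENCODE M21 transcript length, averaged over 5 neighbouring bins, and was tested on simulated data; 99.2% of genes had a length. Other thresholds, centring, pseudocounts and minimum levels of 1 and 5 FPKM were tried. Members and lists were chosen with earlier results of these data known. Genes named are all members, up to 3 called genes per pathway list at 1 FPKM or more, and the 3 nearest to Srf and Mkl1; Mef2c, Dusp5, Spred1, Ppp3ca, Mapk8, Mapk9 and Mapk14 were added after their values were seen. Some of the genes and 1 list that this rule covers are not reported here. Promoters are from RefSeq (GRCm38.p6), exons and codons from GENCODE M21 on the same assembly. Computation used scipy 1.17.1, pandas 2.3.3 and numpy 2.4.6 under Python 3.11.15, and plots matplotlib 3.10.9.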

Additional observations from a re-analysis of the deposited data

How the results depend on the processing

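Srf, Mkl1, Elk1 and Elk4 were called lower at adjusted p thresholds of 0.01 and 0.10, with genes under 1 or 5 FPKM left out, after centring on the median fold and after length adjustment, and Mkl2 and Elk3 were called in none of these; the filter at 5 FPKM removed Mkl2 and Elk3. In 79 of the recomputed values a count stayed within 1.5 times its first value, a tested fold or difference kept its direction and its side of the threshold, or an untested fold moved by less than its error. Another threshold or minimum level leaves a deposited fold as it is by construction. The members' calls at 0.01 and 0.10 likewise follow from their deposited adjusted p values, so these thresholds add no further check. A pseudocount of 1 FPKM turned the log2 fold of Srf to -3.36 and that of Elk4 to -0.84, which is then smaller in size than that of Mkl1 (-0.87), and a pseudocount of 0.1 gave -4.68 for Srf, since adding a constant shrinks folds of low levels. The genes called higher over the whole table numbered 1367 at a threshold of 0.01 and 1201 at 5 FPKM or more, against 2234. No paired analysis was possible because the tables hold 1 pooled value per genotype, and leaving out each replicate could not be done for the same reason.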
